A study of Homo sapiens with 6 samples.

Results

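The 9 genes described here encode subunits of voltage-gated sodium channels, proteins that menthol is known to block: the pore-forming subunit genes SCN1A, SCN2A, SCN3A, SCN4A, SCN8A, SCN9A, SCN10A and SCN11A, and the accessory subunit gene SCN3B. They were taken by name, as probesets whose platform annotation gives 1 gene symbol, and all 9 were measured among 18404 genes. SCN8A had a pair of such probesets, of which the brighter was used. The cells were PC-3, a human prostate carcinoma line whose growth does not need androgen, kept in DMEM with 10% fetal bovine serum. The menthol group held 3 arrays of cells given menthol in ethanol, and the vehicle group held 3 arrays of cells given ethanol alone, at 0.1% ethanol in both groups. The dose and the time of treatment were not given in the sources used here, and nothing in the labels tells whether replicates came from separate cultures. The p-values therefore measure the spread between arrays, part or all of which may be technical. In such bulk RNA, fewer cells expressing a gene and less of its RNA per cell cannot be told apart.

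Voltage-gated sodium channels open when a membrane depolarises and carry the sodium current that starts an action potential in nerve and muscle. Each channel is built around a large pore-forming alpha subunit, and the small beta subunits are single-pass adhesion proteins that alter its gating and surface level. Menthol, the cooling compound of mint, favours inactivated channels when it blocks them. Sodium channels have also been described outside excitable tissue, including in metastatic prostate cancer lines, where SCN9A is one of the transcripts named. The arrays report transcript abundance and say nothing of channel opening or block.

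The promoter windows of SCN9A and SCN8A are shown because these were the members that were higher with menthol. They are RefSeq sequences of GRCh38.p14, 250 bases before to 50 after the annotated start, written 5′ to 3′ on the gene's strand. Capitals mark GC boxes, the letters GGGCGG on either strand, where matches may overlap each other.
SCN9A promoter, chr2:166375895-166376194, minus strand: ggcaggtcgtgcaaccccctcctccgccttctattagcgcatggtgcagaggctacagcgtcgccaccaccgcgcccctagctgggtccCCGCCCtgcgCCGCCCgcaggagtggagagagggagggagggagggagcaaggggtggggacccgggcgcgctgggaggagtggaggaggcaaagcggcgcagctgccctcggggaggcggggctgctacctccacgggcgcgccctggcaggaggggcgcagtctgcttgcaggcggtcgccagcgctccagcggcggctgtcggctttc
SCN8A promoter, chr12:51590983-51591282, plus strand: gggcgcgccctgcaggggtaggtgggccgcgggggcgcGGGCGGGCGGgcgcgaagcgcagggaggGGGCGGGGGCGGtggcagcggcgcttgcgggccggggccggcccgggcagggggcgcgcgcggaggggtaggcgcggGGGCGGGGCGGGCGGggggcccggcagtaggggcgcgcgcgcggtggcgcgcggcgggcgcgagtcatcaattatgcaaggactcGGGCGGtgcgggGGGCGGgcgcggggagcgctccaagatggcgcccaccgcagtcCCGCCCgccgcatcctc
Windows were held for 6 of the members, 9 windows in all. The SCN9A window had 2 GC boxes, 28 CpG dinucleotides and 73.3% G and C. The SCN8A window had 10 GC boxes, 52 CpG dinucleotides and 84% G and C. Over 35116 windows of the same length the median was 14 CpG dinucleotides and 58.7% G and C, and 45.0% held a GC box. The windows of SCN1A, SCN2A and SCN10A held 0 GC boxes and between 1 and 3 CpG dinucleotides, while the pair of SCN11A windows differed, with 2 and 23 CpG dinucleotides and with 0 and 2 GC boxes. A TATA box (TATAAA, either strand) was found in the SCN10A window and in one SCN2A window, against 11.5% of all windows. None of the 9 windows held the E-box CACGTG or the cAMP response element TGACGTCA, which 7.26% and 1.85% of all windows hold. Partial sites of the repressor REST, which silences neuronal genes in other tissues, were searched as CAGCACC and GGACAGC. The first was found in one SCN1A window and one SCN11A window, against 7.75% of all windows, and the second in none of the 9, against 6.03%. These matches describe letters in the windows only.

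The signals of the sodium channel genes were mostly dim. Of the 9, 6 lay among the dimmest 4601 genes by mean log2 intensity and 8 below the median signal of all genes. SCN8A alone lay above the middle, at the 56.9th percentile. The 338 olfactory receptor genes, a class with little expected expression in an epithelial line (OR51E1 and OR51E2, known from prostate, were left out), had a median signal of 3.37 on the log2 scale, and 95% of them lay below 4.89. The signals of SCN8A, SCN4A and SCN3B, at 6.93, 5.47 and 5.36, were above that level, and those of SCN9A (4.44), SCN10A (4.07), SCN11A (3.65), SCN2A (3.57), SCN3A (3.21) and SCN1A (2.82) were below it. Probesets differ in sensitivity, so these signals do not rank the amounts of RNA, and the files give no detection call. The close similarity of the alpha subunit genes can let a probe bind more than 1 of them, and probe sequences were not used here.

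**Figure D1:**
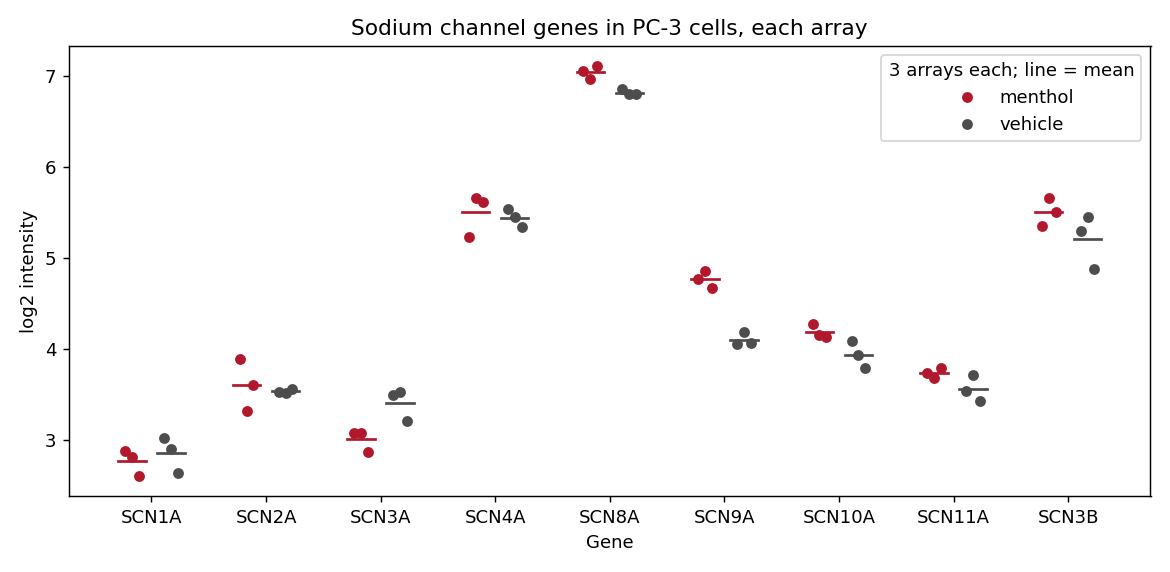
Log2 intensity of each sodium channel gene on the vertical axis, with the 3 menthol arrays (red) left of the 3 vehicle arrays (grey) and a line at each group mean. The menthol arrays of SCN9A, between 4.67 and 4.86, all lie above its vehicle arrays, between 4.05 and 4.19, and the SCN3A groups are separated the other way.

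With menthol, 3 of the 9 sodium channel genes passed the threshold, an adjusted p of 0.05 in limma with Benjamini-Hochberg adjustment over all genes: SCN9A and SCN8A were higher and SCN3A was lower. Over all 18404 genes 29.1% passed, 14.6% higher and 14.5% lower, so the members' share was near that of the table as a whole. The groups did not overlap in 4 of the 9, higher in SCN9A, SCN8A and SCN10A and lower in SCN3A, against 45.3% of all genes (23.5% higher and 21.7% lower). Without menthol replicate 3 and without vehicle replicate 2 the count of members past the threshold was 1, SCN9A, in place of 3. The median log2 fold change, menthol minus vehicle, was 0.18 over the 9 members and 0.03 over all genes, and 7 of the 9 values were above 0. Under quantile or cyclic loess normalization 6 were above 0, and the median of the members was 0.07 and 0.08.

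SCN9A, the channel of pain-sensing and sympathetic neurons, showed the largest difference of the 9. Its log2 intensity was 4.77, 4.86 and 4.67 on the menthol arrays, against 4.05, 4.19 and 4.07 on the vehicle arrays. The lowest menthol array was above the highest vehicle array. In linear intensity these were 27.2, 29.1 and 25.5 with menthol and 16.6, 18.3 and 16.8 with vehicle. SCN9A rose by 0.66 ± 0.07 on the log2 scale (SE, n = 3 per group), or 1.58-fold with a 95% interval of 1.41 to 1.79, with an adjusted p of 0.00068 in limma. With 16 added before the logarithm the SCN9A difference was 0.38 and still passed. By p-value it stood at rank 663 of the 18404 genes.

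SCN8A, the main channel of the nodes of Ranvier, was the brightest of the sodium channel signals and was slightly higher with menthol. It measured 7.05, 6.96 and 7.10 on the menthol arrays and 6.85, 6.80 and 6.80 on the vehicle arrays, without overlap. The difference was 0.22 ± 0.06 on the log2 scale (SE, n = 3 per group), or 1.17-fold, with an adjusted p of 0.034 in limma. The second, dimmer probeset of SCN8A, fitted among all single-symbol probesets, overlapped between the groups, at 6.51, 6.24 and 6.66 with menthol and 6.34, 6.26 and 6.35 with vehicle, and did not pass (0.15 ± 0.11, adjusted p = 0.327 in limma). The call on SCN8A was lost without menthol replicate 1 or 3 or any single vehicle replicate, with limma adjusted p between 0.071 and 0.103, and with the mean of its probesets (adjusted p = 0.126).

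SCN3A, best known from the developing brain, moved the other way. It measured 3.09, 3.08 and 2.88 on the menthol arrays, against 3.50, 3.53 and 3.22 on the vehicle arrays, so that each menthol array lay below each vehicle array. SCN3A fell by 0.40 ± 0.10 on the log2 scale (SE, n = 3 per group), and its vehicle level was 1.32 times its menthol level, with an adjusted p of 0.023 in limma. The call on SCN3A was lost without menthol replicate 3 and without vehicle replicate 1 or 2, with limma adjusted p between 0.066 and 0.077, and with 16 added before the logarithm, where the difference was -0.15. Its signal lay among those of the olfactory receptor genes, of which 41.7% were dimmer.

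The other alpha subunit genes of the central nervous system did not pass. SCN1A, the channel of inhibitory interneurons, measured 2.89, 2.82 and 2.61 with menthol and 3.02, 2.91 and 2.64 with vehicle, and the groups overlapped. Its log2 fold change was -0.08, with a 95% interval of -0.35 to 0.18, and it was -0.19 under either quantile or cyclic loess normalization. SCN2A, the channel of the axon initial segment of excitatory neurons, was spread on the menthol arrays, at 3.89, 3.32 and 3.61, around tight vehicle values of 3.53, 3.52 and 3.56. Its log2 fold change was 0.07, with an interval of -0.23 to 0.37. SCN2A changed sign under quantile and cyclic loess normalization and with array weights, at -0.03 in each, and without menthol replicate 1, at -0.07, while without menthol replicate 2 it was 0.21.

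SCN10A and SCN11A, the channels of nociceptive sensory neurons that resist tetrodotoxin, did not pass either. SCN10A measured 4.28, 4.16 and 4.13 with menthol and 4.09, 3.94 and 3.79 with vehicle, without overlap. Its log2 fold change was 0.25 ± 0.09 (SE, n = 3 per group) with an adjusted p of 0.072 in limma. Of the 6 fits that left out 1 array, it passed in the one without vehicle replicate 1 (0.32, adjusted p = 0.041 in limma; over its 15 alternatives the adjusted p lay between 0.041 and 0.213). SCN11A measured 3.74, 3.69 and 3.79 with menthol and 3.54, 3.72 and 3.44 with vehicle, where one vehicle array lay within the menthol values. Its log2 fold change was 0.18, with an interval of -0.02 to 0.37, and it was 0.07 and 0.08 under quantile and cyclic loess normalization.

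SCN4A, the channel of skeletal muscle, measured 5.24, 5.66 and 5.61 with menthol and 5.54, 5.45 and 5.34 with vehicle. The groups overlapped, and the log2 fold change was 0.06 with a 95% interval of -0.21 to 0.33. With single arrays left out SCN4A lay between -0.02, without menthol replicate 2, and 0.19, without menthol replicate 1, and under quantile and cyclic loess normalization it was 0.00. The beta subunit gene SCN3B measured 5.35, 5.66 and 5.50 with menthol and 5.30, 5.45 and 4.88 with vehicle, with vehicle replicate 3 the lowest of the 6. Its log2 fold change was 0.30 with an interval of -0.05 to 0.64, so neither a 1.5-fold increase nor no change is outside it. Without vehicle replicate 3 the SCN3B value was 0.13.

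**Figure D2:**
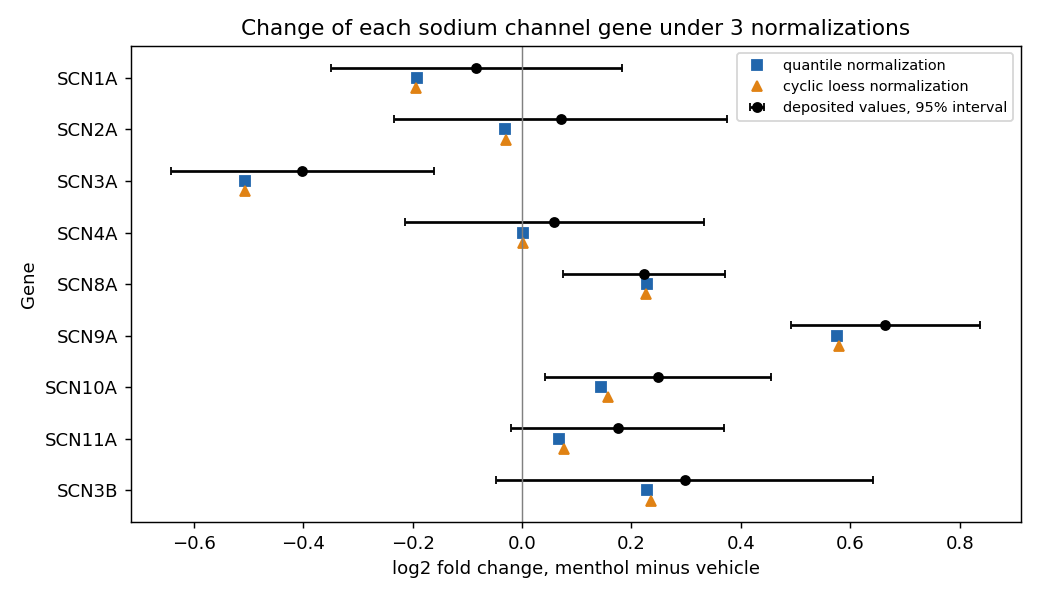
Log2 fold change, menthol minus vehicle, for each sodium channel gene, with black points and 95% intervals from the deposited values, blue squares after quantile normalization and orange triangles after cyclic loess normalization. SCN9A stays between 0.58 and 0.66 and SCN3A between -0.51 and -0.40 in the 3 settings.

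Dim genes as a class were slightly higher with menthol in the deposited values. The median log2 fold change was 0.10 over the dimmest 4601 genes, where 10.3% passed as higher and 1.91% as lower, and 0.10 over the olfactory receptor genes, of which 23 passed as higher and 5 as lower. The median of the dimmest 4601 genes was 0.00 after quantile and cyclic loess normalization, where 6 olfactory receptor genes passed as higher and 12 or 13 as lower. In place of 28 in all, 16 olfactory receptor genes passed without menthol replicate 1, and 18, 15 and 14 without vehicle replicates 1, 2 and 3. SCN9A lay above 98.8% of the dimmest 4601 genes by its log2 fold change, 0.56 above their median, and had a log2 fold change of 0.58 under either normalization (adjusted p = 0.0011 in limma for both). SCN3A lay above 1.43% of the same genes, and measured -0.51 under either normalization. SCN10A and SCN11A lay above 80.6% and 67.3% of them, and SCN2A above 43.1%.

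**Figure D3:**
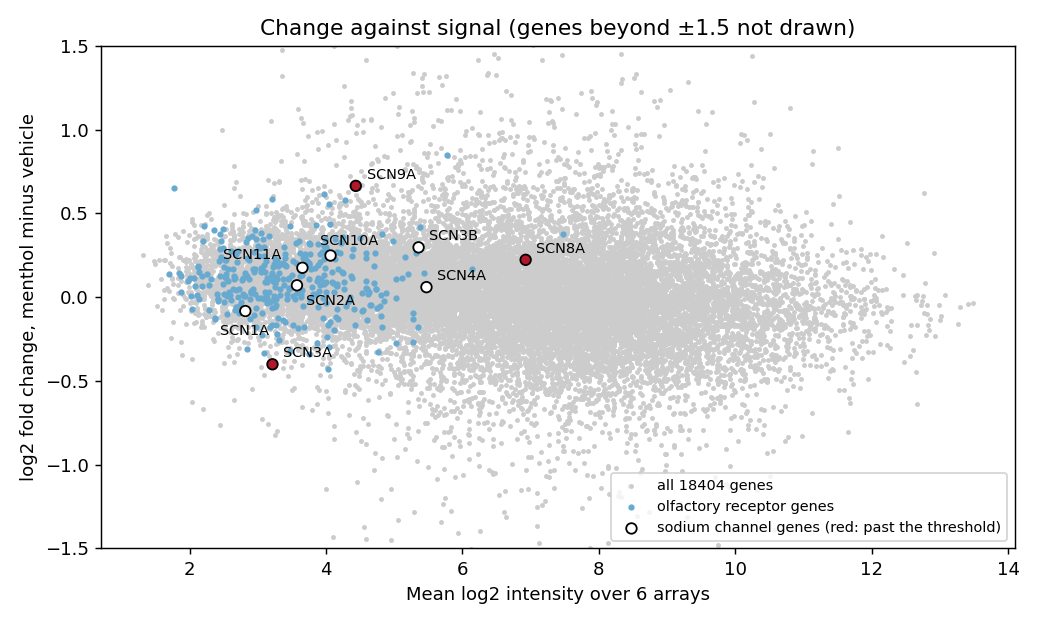
Log2 fold change, menthol minus vehicle, against mean log2 intensity over the 6 arrays, for all 18404 genes (grey), olfactory receptor genes (blue) and the 9 sodium channel genes (outlined, red where past the threshold). SCN9A lies at the upper edge and SCN3A at the lower edge of the dim genes, whose median is 0.10.

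Among the remaining sodium channel genes measured, SCN7A, which encodes a sodium-sensing channel that does not respond to voltage like its relatives, rose by 0.38 ± 0.09 on the log2 scale (SE, n = 3 per group; adjusted p = 0.015 in limma). It measured 2.83, 3.01 and 2.99 with menthol and 2.41, 2.62 and 2.65 with vehicle, without overlap and with a mean signal of 2.75. The call on SCN7A was lost under quantile normalization, under cyclic loess normalization, with 16 added before the logarithm and without menthol replicate 2 (adjusted p = 0.054). The beta subunit genes SCN2B and SCN4B did not pass, at 0.28 and 0.13.

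Genes whose products bind, anchor, modify or counteract sodium channels were chosen by role. They were counted together with the remaining sodium channel genes above, and 47 of 63 were measured. Of these, 7 were higher, SCN7A among them, and 6 lower with menthol, with a median log2 fold change of 0.00. The shares, 14.9% and 12.8%, were close to those of all genes. Anchoring and adhesion genes included 2 that fell and 0 that rose among 11: SNTB1, a syntrophin that links channels to the dystrophin complex, fell by 0.62 ± 0.07 (SE here and below, n = 3 per group; adjusted p = 0.00087 in limma), and ANK3, the ankyrin that holds sodium channels at the axon initial segment, fell by 0.42 ± 0.08 (adjusted p = 0.0053 in limma). SNTB1 measured 8.03, 8.23 and 8.16 with menthol, against 8.81, 8.77 and 8.69 with vehicle. ANK3 measured 6.81, 6.81 and 7.02 with menthol, against 7.33, 7.28 and 7.28 with vehicle, again without overlap.

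The kinase genes moved in both directions, with 2 of 8 higher (25%) and 3 lower (37.5%), beside 14.6% and 14.5% of all genes. FYN, a tyrosine kinase that phosphorylates sodium channels, measured 7.47, 7.51 and 7.50 with menthol and 8.04, 8.11 and 8.08 with vehicle, and fell by 0.59 ± 0.06 (adjusted p = 0.00038 in limma). CAMK2D, a calcium-calmodulin kinase, fell by 0.43 ± 0.11 (adjusted p = 0.020 in limma) and PRKCE, a protein kinase C, by 0.28 ± 0.06 (adjusted p = 0.012 in limma). CDK5, a kinase active in neurons, rose by 0.37 ± 0.06 (adjusted p = 0.0032 in limma) and PRKACA, the catalytic subunit of protein kinase A, by 0.30 ± 0.08 (adjusted p = 0.028). The call on CAMK2D was lost without menthol replicate 3 or vehicle replicate 2 or 3 (adjusted p up to 0.067), that on PRKACA without menthol replicate 1 or any single vehicle replicate (up to 0.094) and that on PRKCE without vehicle replicate 1 (0.052).

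In trafficking and turnover 1 of 8 genes passed: DPYSL2, the collapsin response mediator that aids surface delivery of the SCN9A channel in sensory neurons, rose by 0.54 ± 0.07 (adjusted p = 0.00095 in limma). It measured 9.29, 9.33 and 9.37 with menthol, against 8.80, 8.71 and 8.87 with vehicle. In beta subunit cleavage 1 of 4 passed, PSEN2, a catalytic subunit of gamma-secretase, which rose by 0.53 ± 0.07 (adjusted p = 0.0011 in limma). Of 4 genes of the sodium gradient 2 rose, beside 14.6% of all genes. These were the sodium-calcium exchanger SLC8A1, by 0.59 ± 0.10 (adjusted p = 0.0038 in limma), and the sodium pump subunit ATP1B1, by 0.26 ± 0.07 (adjusted p = 0.029 in limma). SLC8A1 measured 6.29, 5.99 and 6.20 with menthol and 5.59, 5.44 and 5.67 with vehicle. The call on ATP1B1 was lost without menthol replicate 2 or 3 or vehicle replicate 1 or 3 (adjusted p up to 0.091).

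Of 5 transcription genes SIN3A, a corepressor that REST recruits, fell by 0.26 ± 0.06 (adjusted p = 0.015 in limma), a call lost without vehicle replicate 1 or 2 (adjusted p up to 0.055). None of the 4 cytosolic fibroblast growth factor homologues passed, and the smallest p-values among them were those of FGF13 at -0.18 and FGF11 at -0.23. Without vehicle replicate 3 FGF11 passed at -0.40 (adjusted p = 0.022 in limma, over its 16 alternatives 0.022 to 0.626), and without vehicle replicate 2 it was -0.10 and FGF13 was also -0.10. Of 10 genes for the pore subunits of voltage-gated calcium channels, another channel family that menthol inhibits, 1 rose and 1 fell. Over all genes 14.6% passed as higher and 14.5% as lower. CACNA1H fell by 0.41 ± 0.07 (adjusted p = 0.0043 in limma) and CACNA1F rose by 0.24 ± 0.08 (adjusted p = 0.049 in limma). The median log2 fold change of these 10 genes was 0.06. The CACNA1F call was lost in 11 of 15 alternatives (adjusted p up to 0.143), among them each normalization tried, the omission of menthol replicate 1 or 2 and that of vehicle replicate 1 or 3.

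**Figure D4:**
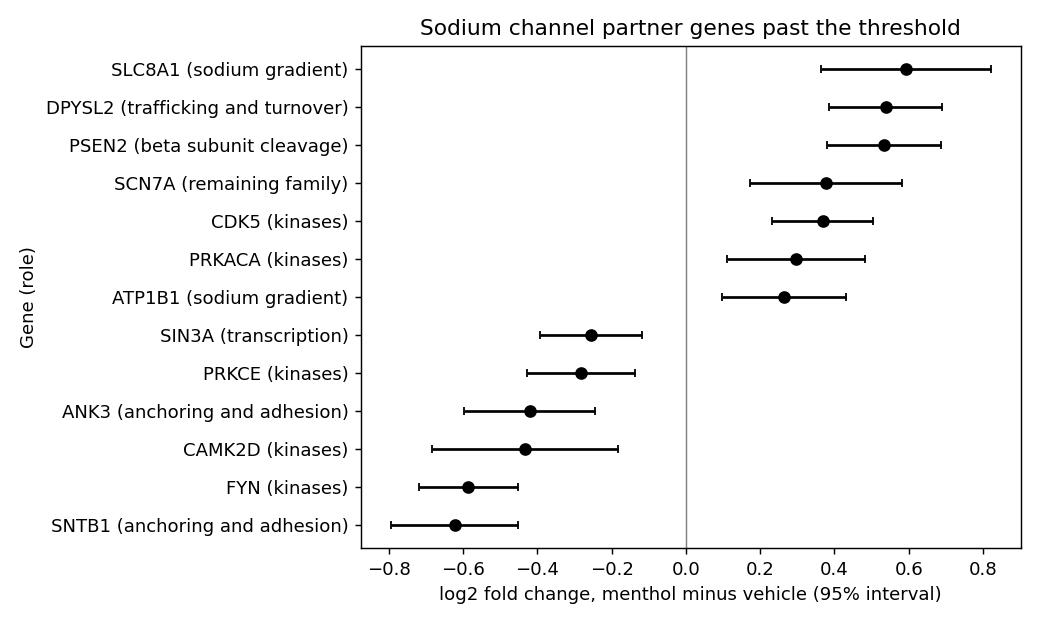
Log2 fold change, menthol minus vehicle, with 95% intervals for the 13 sodium channel partner genes past the threshold, labelled by role, out of 47 measured. SCN7A, of the remaining family, is among them. SLC8A1 is highest at 0.59 and SNTB1 lowest at -0.62, with 7 genes above 0 and 6 below.

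SCN1A, SCN2A, SCN3A and SCN9A lie together on chromosome 2, SCN10A and SCN11A on chromosome 3, and SCN3B, SCN8A and SCN4A on chromosomes 11, 12 and 17. Within 1000000 bases of a member in the RefSeq gene table, 127 protein-coding genes that are not members were measured, of which 19 were higher and 9 lower, with a median log2 fold change of 0.07. The shares were 15.0% higher and 7.09% lower, beside 14.6% and 14.5% of all genes, so the higher share was near that of the table as a whole. The count past the threshold was 18 without menthol replicate 2, 16 without vehicle replicate 1 or 2 and 15 without vehicle replicate 3, in place of 28. SCN7A, on chromosome 2, is counted here as well as among the family. On chromosome 2 B3GALT1, a galactosyltransferase gene near SCN9A, fell by 1.72 ± 0.15 and GALNT3, which starts O-glycosylation and neighbours all 4 members there, rose by 1.03 ± 0.09. B3GALT1 measured 4.44, 4.89 and 5.00 with menthol, against 6.30, 6.54 and 6.66 with vehicle, and GALNT3 8.65, 8.69 and 8.92 with menthol, against 7.77, 7.63 and 7.77 with vehicle. B3GALT1 and GALNT3, which moved in opposite directions, both lay within 1000000 bases of SCN9A. SCN3A, which fell, also lay within that distance of SCN9A, which rose. Of the 9 neighbours measured on chromosome 2, 2 were higher and 2 lower. On other chromosomes the epithelial keratin gene KRT7, near SCN8A, rose by 1.11 ± 0.07, the adhesion gene PECAM1 and the ubiquitin ligase gene SMURF2, near SCN4A, by 0.60 ± 0.07 and 0.59 ± 0.08, and the mitochondrial carrier gene SLC25A38, near SCN10A and SCN11A, by 0.56 ± 0.11. These 6 neighbours had adjusted p of 6.0e-05 to 0.0076 in limma. With the mean of its probesets PECAM1 rose by 0.32 (adjusted p = 0.023 in limma).

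The genes whose values over the 6 arrays ran closest to a called member, by the root mean square difference of log2 values centred on each gene's mean, were found in all 18404 genes. For SCN9A these were ZNF85, DENND2C, FOXP1, PHLDA3 and CDA, at differences of 0.04 to 0.05. For SCN8A they were ZNF777, TPP1, GNRHR2, UBASH3B and LRRC8B, at 0.02 to 0.03. For SCN3A they were CCL4, CACNA1H, CMTM8, SNORD116-18 and NRARP, at 0.05 to 0.07. This likeness covers the difference between the groups as well as the spread within them. CCL4, SNORD116-18 and TPP1 did not pass (adjusted p = 0.0514, 0.0501 and 0.0516 in limma), but did in 7 of 15, 8 of 15 and 5 of 16 alternatives. CCL4 and SNORD116-18 had mean signals of 2.65 and 2.03. The calls on ZNF777 and LRRC8B were lost in 10 and 8 of 16 alternatives. Those on GNRHR2, NRARP and UBASH3B were lost in 4, 4 and 3 of 16.

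The epithelial identity of the line was seen in its markers: KRT8, KRT18, KRT19, EPCAM and CDH1 had mean log2 intensities between 9.10 and 11.43, and all 5 were higher with menthol, with a summed intensity of 10519.5 to 10856 on the menthol arrays and 6213 to 6570 on the vehicle arrays. Of 10 neuronal markers 1 rose (SYT1, 0.38) and 1 fell (NEFL, -1.07), of 5 neuroendocrine markers 1 rose (NCAM1, 0.33), of 4 glial markers 1 rose (S100B, 0.37), of 5 muscle markers 1 rose (CKM, 0.49) and of the androgen-dependent markers KLK2 and KLK3 neither passed. The summed intensity of the neuronal markers was 786.8 to 817.9 with menthol and 1392 to 1461 with vehicle, most of it from NEFL. SYT1, NCAM1, S100B and CKM were dim, with mean signals of 4.70, 4.43, 2.97 and 4.18. All lay below 4.89, the level under which 95% of the olfactory receptor genes lay. Over all genes 14.6% passed as higher and 14.5% as lower, and over the dimmest 4601 genes 10.3% and 1.91%. The lowest deposited intensity was 1.57, so a value above 0 does not show that a marker was expressed. The part of these markers in the sodium channel values was not tested. Among these calls, SYT1 was lost without menthol replicate 3 or vehicle replicate 1 or 3, NCAM1 without vehicle replicate 3, and S100B in 9 of 15 alternatives, including each normalization tried and the omission of any menthol replicate or of vehicle replicate 1 or 3.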

How the data were processed

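RNA of PC-3 cells was hybridised to 6 Affymetrix whole-transcript arrays. The authors deposited 1 table of intensity values for 32321 probesets, made with RMA per the submitters' processing notes; the sources used here give no version or genome build. The deposited intensity values ran between 1.57 and 14835, which is a linear scale, and were converted to log2. Of the probesets, 19158 had 1 gene symbol, and the brightest of them by mean log2 intensity stood for its gene, giving 18404 genes. All of them were fitted with limma 3.58.1 under R 4.3.3, using lmFit, eBayes and no covariate, and the two-sided p-values were adjusted over all genes by the Benjamini-Hochberg method; other numbers and the figures were made with Python 3.11.15. With 3 arrays a group, the smallest two-sided p of an exact permutation test is 0.1. The fit was tested on simulated data. The number of arrays limits the precision.

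Members, gene lists, tests and the rule on which genes are named were chosen with earlier results of these data known. All members are named, and each other list gives at most 6 genes that passed, by size of change, or where none did, the 2 of smallest p. SCN2B and SCN4B, and the 5 most similar genes of each called member by profile, are named as well, SCN2B and SCN4B after their values were seen. Same-numbered arrays were checked for pairing: the correlations of their deviations from the group means were 0.01, -0.01 and 0.09 over all genes, so the numbers were not taken to pair the arrays. The alternatives were quantile, cyclic loess and median normalization, 16 added before the logarithm, the dimmest 4601 genes left out, other uses of probesets, a trended robust prior, array weights, a replicate block and the omission of each array.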

Additional observations from a re-analysis of the deposited data

How the results depend on the processing

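SCN9A kept its direction and its side of the threshold in the 15 alternatives that tested it, with a log2 fold change of 0.38 to 0.71 and an adjusted p in limma of at most 0.0046; it was not tested where the dimmest 4601 genes were left out, nor were SCN1A, SCN2A, SCN3A, SCN10A and SCN11A. The call on SCN3A ended with 16 added before the logarithm (-0.15), and with each array left out in turn its value lay between -0.50 and -0.33. The call on SCN8A ended with the mean of its probesets (0.19) and with the replicate number as a block (0.22, adjusted p = 0.060), and lay between 0.19 and 0.26 with each array left out. With the replicate block SCN10A passed at 0.25 (adjusted p = 0.045), and with each array left out it lay between 0.17 and 0.32. The labels do not say what arrays of the same replicate number share, and the block moved the count of all genes past the threshold to 4868 in place of 5353. It also ended the calls on ATP1B1, PRKACA, CACNA1F, SYT1, ZNF777 and LRRC8B, with adjusted p of 0.050 to 0.076 in limma. Leaving out the dimmest genes left 1 member past the threshold of 3 tested, and leaving out each array in turn left 1 to 3 members of 9, 1 to 2 calcium channel genes, 15 to 28 neighbouring genes and 14 to 25 olfactory receptor genes. Calcium channel genes past the threshold numbered 1 in place of 2 under quantile, cyclic loess and median normalization, with 16 added, without the dimmest genes, with every probeset on its own, with the trended prior and with the block. Olfactory receptor genes past the threshold numbered 18 under quantile normalization (6 higher and 12 lower), 13 with 16 added and 9 of 26 tested without the dimmest genes, in place of 28. SCN1A, SCN2A, SCN4A, SCN11A and SCN3B did not pass in any alternative run. The causes were not tested. Low signal over background limits what these arrays can show for most sodium channel genes.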
